A study of Mus musculus with 24 samples.

Results

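The 36 genes described here encode aminoacyl-tRNA synthetases, the enzymes that join each amino acid to its transfer RNA. They were taken by gene symbol from a list of 20 enzymes that work in the cytosol and 16 that work in mitochondria, the latter recognised by a symbol ending in 2. All 36 were present among the 23234 genes of each of 2 deposited expression tables. Expression was measured by RNA-seq in B cells freshly isolated from the spleen of C57BL/6 mice. The labels listed 24 samples in 8 groups, of which 12 samples in 4 groups were used: 3 control and 3 Tet2/Tet3-deficient libraries of CD93-negative B cells, and 3 control and 3 Tet2/Tet3-deficient libraries of CD93-positive B cells. The CD93 protein marks newly formed B cells that have recently left the bone marrow, and some other cells carry it as well. Tet2 and Tet3 are dioxygenases that oxidise 5-methylcytosine in DNA. No treatment is given for any group. The exons that were deleted, the Cre line, the genotype of the controls beyond the word control and the age of the animals are not given in the sources used here. Nothing in the labels says whether replicates came from separate mice. The p-values below therefore reflect only library-to-library spread, which may be technical. The exception is CD93-positive control 3, whose sex-linked genes, given below, differ from those of controls 1 and 2. Those controls were thus not all from the same animal.

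A synthetase recognises its amino acid and its tRNA, activates the amino acid with ATP and transfers it to the tRNA, which then delivers it to the ribosome. Most amino acids have separate nuclear genes for the cytosolic and the mitochondrial enzyme, whereas the genes for the glycine enzyme (Gars) and the lysine enzyme (Kars) serve both compartments. Eprs carries the glutamate and the proline enzyme in a single protein, and Farsa and Farsb are the subunits of the cytosolic phenylalanine enzyme. Many cytosolic synthetase genes are targets of Atf4, a transcription factor that is translated more when amino acids are scarce or the endoplasmic reticulum is under stress. Wars, the cytosolic tryptophan enzyme, is also well known as a gene induced by interferon-gamma. Cells that grow, divide or secrete antibody have a high demand for charged tRNA.

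Promoter sequence was examined because members of the cytosolic list moved together, as described below. RefSeq windows of the mouse assembly GRCm38.p6, from 250 bases before to 50 bases after a transcription start, were matched for 27 of the 36 members, 13 cytosolic and 14 mitochondrial. Those without a matched window were Cars, Hars, Lars, Nars, Rars, Vars, Wars, Hars2 and Pars2. The motif TGATGNAA, the core of the element that binds Atf4 with a C/EBP partner, was searched on both strands. It was found for 5 of 13 cytosolic members (38.5%), for 0 of 14 mitochondrial members and in 3.97% of all 32851 windows of this length. Members are counted per gene, and Aars2 had 2 windows, whereas the share over all is per window. CACGTG, the E-box letters, can overlap that core at its end by the letters TG or CA. It was found for 4 of 13 cytosolic members (30.8%), 1 of 14 mitochondrial members (7.14%) and in 7.15% of all windows. A match describes letters in the window and is not evidence of binding. The 5 windows with TGATGNAA are shown from 150 bases before to 20 bases after the start, 5′ to 3′ on the strand of the gene, with the motif in capitals. In all but Yars it lies on the opposite strand, so that its reverse complement is what stands in capitals.
Aars, chr8:111033692-111033861, plus strand: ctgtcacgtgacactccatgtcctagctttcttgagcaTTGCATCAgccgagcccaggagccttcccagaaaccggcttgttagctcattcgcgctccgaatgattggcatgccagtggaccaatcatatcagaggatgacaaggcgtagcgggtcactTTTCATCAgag
Gars, chr6:55037851-55038020, plus strand: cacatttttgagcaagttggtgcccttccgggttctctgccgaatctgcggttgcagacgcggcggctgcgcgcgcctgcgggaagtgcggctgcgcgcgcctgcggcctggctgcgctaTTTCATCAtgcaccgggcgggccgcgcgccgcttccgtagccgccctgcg
Iars, chr13:49681980-49682149, plus strand: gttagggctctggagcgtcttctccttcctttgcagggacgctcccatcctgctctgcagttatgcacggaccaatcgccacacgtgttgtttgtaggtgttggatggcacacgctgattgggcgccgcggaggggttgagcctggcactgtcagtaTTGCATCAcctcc
Tars, chr15:11399639-11399808, minus strand: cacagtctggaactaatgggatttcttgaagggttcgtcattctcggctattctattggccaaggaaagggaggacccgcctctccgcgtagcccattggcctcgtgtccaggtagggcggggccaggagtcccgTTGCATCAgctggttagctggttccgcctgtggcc
Yars, chr4:129189753-129189922, plus strand: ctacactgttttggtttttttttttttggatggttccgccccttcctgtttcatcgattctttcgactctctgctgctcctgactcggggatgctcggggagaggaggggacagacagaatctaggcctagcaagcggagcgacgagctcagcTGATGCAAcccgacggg
In Aars the motif began 112 bases before the start and again at base 10 of the transcript. It began 30 bases before the start in Gars and 15 bases before it in Tars. In Iars and Yars it lay inside the transcript, at bases 8 and 4. Of these genes Aars, Gars, Tars and Yars rose in CD93-negative cells, 4 of 5, and Iars did not pass the test there. Of the cytosolic genes with a window but no match, Farsa, Kars, Qars and Sars rose, 4 of 8, and Dars, Eprs, Farsb and Mars did not pass. In the whole cytosolic list 11 of 20 rose, beside 18.7% of all tested genes. Wars, Rars and Hars also rose, but had no window and are in neither count. The counts are small and the difference between them was not tested. In CD93-positive cells no member passed with the authors' scaling. With libraries rescaled as described below, all the genes with a match rose there. So did all the cytosolic genes with a window but no match except Farsa, beside 11.4% of all tested genes.

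Values are FPKM as the authors deposited them, fragments scaled to transcript length and to the size of the library, so levels of different genes are already per length and can be compared within a library. They hold no counts, and sequencing depth is not known. Every log2 change is the deficient minus the control mean of log2(FPKM + 1), a scale that makes changes of low genes look smaller than they are. Tests are limma fits over all genes of a table that reached 1 FPKM in 3 or more libraries, 10960 genes in CD93-negative and 11250 in CD93-positive cells, with Benjamini-Hochberg adjustment and a threshold of 0.05. "Rose" and "fell" are used of genes past that threshold. Because libraries differed in overall scale, each result was also fitted after every library had been brought to the same upper quartile over tested genes, called rescaling below. The tables were scaled separately, so a comparison was made only within a table.

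A single library stood apart in each table. In CD93-negative cells, control 1 had an upper quartile of 18.7 FPKM against 23.0 to 26.1 FPKM in the other 5, and in CD93-positive cells deficient 3 had 15.4 FPKM against 25.8 to 30.0 FPKM. All 6 CD93-negative libraries, and controls 1 and 2 of the CD93-positive table, had over 10 FPKM of the Y-linked gene Ddx3y. CD93-positive control 3 and all 3 CD93-positive deficient libraries had Xist at 19.7 to 59.4 FPKM, so there the sex of the animals differed partly with the genotype. Summed pan-B cell markers (8 genes) were at 3462 to 4307 FPKM in CD93-negative control and 3714 to 3879 FPKM in deficient libraries, and at 3741 to 4951 and 1736 to 3632 FPKM in CD93-positive ones. Cd93 itself was at 3.32 to 4.65 FPKM in the CD93-negative table and 28.0 to 59.9 FPKM in the CD93-positive table. Tet2 was at 6.36 to 8.79 FPKM in control and 8.15 to 9.94 FPKM in deficient CD93-negative libraries, and Tet3 at 14.8 to 20.1 against 14.9 to 15.7 FPKM. In CD93-positive libraries Tet2 was at 3.10 to 3.47 against 1.80 to 3.55 FPKM, and Tet3 at 12.1 to 14.1 against 3.84 to 9.92 FPKM, with deficient 3 the lowest of both. Since a gene value includes exons outside a deletion, these levels do not check the genotype, and "deficient" is used as the labels give it.

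The members spanned a wide range of levels in control cells, and the cytosolic list lay above the mitochondrial one. The median of the 20 cytosolic control means was 19.7 FPKM in CD93-negative cells (range 9.20 to 123 FPKM) and 28.6 FPKM in CD93-positive cells (range 12.5 to 162 FPKM). The 16 mitochondrial means had medians of 7.72 and 9.07 FPKM. Vars, the cytosolic valine enzyme, stood far above the rest of its list, at 101, 140 and 129 FPKM in the CD93-negative controls and 165, 148 and 173 FPKM in the CD93-positive controls. The next were Kars, at 32.6, 38.2 and 35.5 FPKM in CD93-negative controls, and Qars, the glutamine enzyme, at 29.2, 37.7 and 36.9 FPKM, whose ranges overlapped. Kars and Qars were also next in CD93-positive controls, at 64.4, 51.4 and 61.5 FPKM for Kars and 51.4, 45.7 and 53.8 FPKM for Qars, again overlapping. Cars, the cysteine enzyme, was the lowest of the cytosolic list in both tables, at 7.30, 10.7 and 9.61 FPKM and at 11.6, 12.3 and 13.6 FPKM. Its neighbours in the order were Yars, the tyrosine enzyme (9.94, 13.0 and 11.1 FPKM), and Aars, the alanine enzyme (10.2, 11.8 and 13.4 FPKM), in CD93-negative controls, all 3 with overlapping ranges. In CD93-positive controls they were Lars, the leucine enzyme (14.6, 14.8 and 16.1 FPKM), and Yars (20.1, 17.1 and 19.9 FPKM), and these 3 did not overlap each other.

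Among mitochondrial members Lars2, the leucine enzyme, had the highest level but varied most, and its values are described apart. It was followed by Tars2, the threonine enzyme, at 15.6, 23.7 and 21.1 FPKM in CD93-negative and 18.2, 14.4 and 19.3 FPKM in CD93-positive controls. Iars2, the isoleucine enzyme, was at 12.4, 15.1 and 14.0 FPKM and at 17.7, 15.02 and 17.7 FPKM. The lowest in CD93-negative controls were Nars2, the asparagine enzyme (1.95, 2.76 and 2.53 FPKM), Pars2, the proline enzyme (2.45, 3.99 and 2.98 FPKM), and Wars2, the tryptophan enzyme (3.11, 3.63 and 3.28 FPKM), with ranges that overlapped from neighbour to neighbour. In CD93-positive controls the order began with Wars2 (1.60, 1.60 and 1.99 FPKM), Nars2 (2.28, 2.57 and 2.78 FPKM) and Ears2, the glutamate enzyme (2.71, 2.68 and 3.55 FPKM). Wars2 did not overlap Nars2 there.

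**Figure D1:**
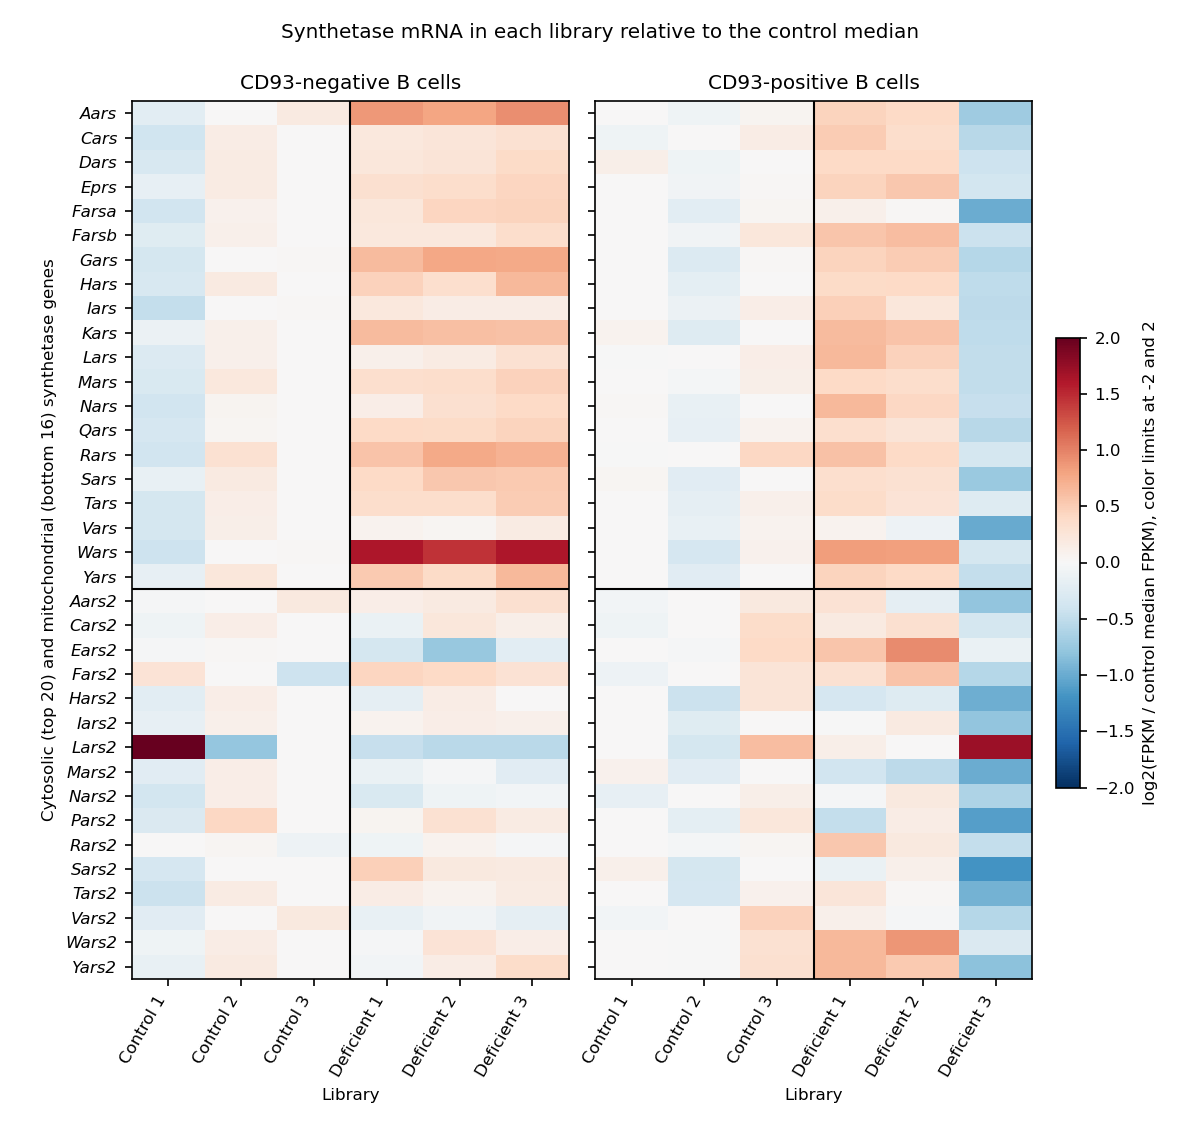
Each row is a member gene, the 20 cytosolic above and the 16 mitochondrial below, and each column a library. Colour gives the log2 ratio of FPKM to the median of the 3 controls of the table, in the authors' scaling, limited to -2 and 2. The deficient CD93-negative libraries are warm over nearly all of the cytosolic rows and most strongly for Wars, and CD93-positive deficient 3 is cool in nearly every row except Lars2.

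The first comparison asked how combined deficiency of Tet2 and Tet3 changed these genes in CD93-negative B cells. Cytosolic synthetase mRNAs were higher in deficient cells: 11 of 20 rose, with Wars at the top, and 0 fell. The 11 were Wars, Aars, Gars, Rars, Kars, Hars, Qars, Yars, Sars, Tars and Farsa, with folds of the mean from 1.37 to 3.20. None of the 16 mitochondrial genes rose or fell (adjusted p = 0.1002 or more, limma; 3 had an unadjusted p under 0.05). Over all tested genes, 18.7% rose and 2.79% fell. For 19 of the 20 cytosolic genes, all but Vars, the 3 deficient libraries lay above the 3 controls, against 31.5% of all tested genes. For the mitochondrial list the corresponding counts were 2 higher and 1 lower, against a background of 7.43% for lower. The median log2 change was 0.45 in the cytosolic list and 0.06 in the mitochondrial list, beside 0.11 over all tested genes. The difference between the lists was not tested, and in a bulk sample more cells that express a gene and more RNA per cell cannot be told apart.

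After rescaling, the cytosolic count was 12 higher and 0 lower, the original 11 plus Mars, the methionine enzyme, with 17.1% of all genes higher and 23.8% lower. The cytosolic median was then 0.24 beside -0.08 over all genes, so that its distance from all genes was 0.34 before and 0.32 after rescaling. Of the 20 cytosolic genes 17 still lay wholly higher, against 21.4% of all genes. In the mitochondrial list 3 genes fell after rescaling, Ears2, Mars2 and Vars2, and 0 rose, and 6 lay wholly lower, against 33.3% of all genes. The number of cytosolic genes called was 5 to 15 when 1 library was left out at a time. All tested genes called higher then numbered 1180 to 2630, against 2045 with every library. Wars, Aars, Gars and Kars were called in every alternative fit that was run.

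**Figure D2:**
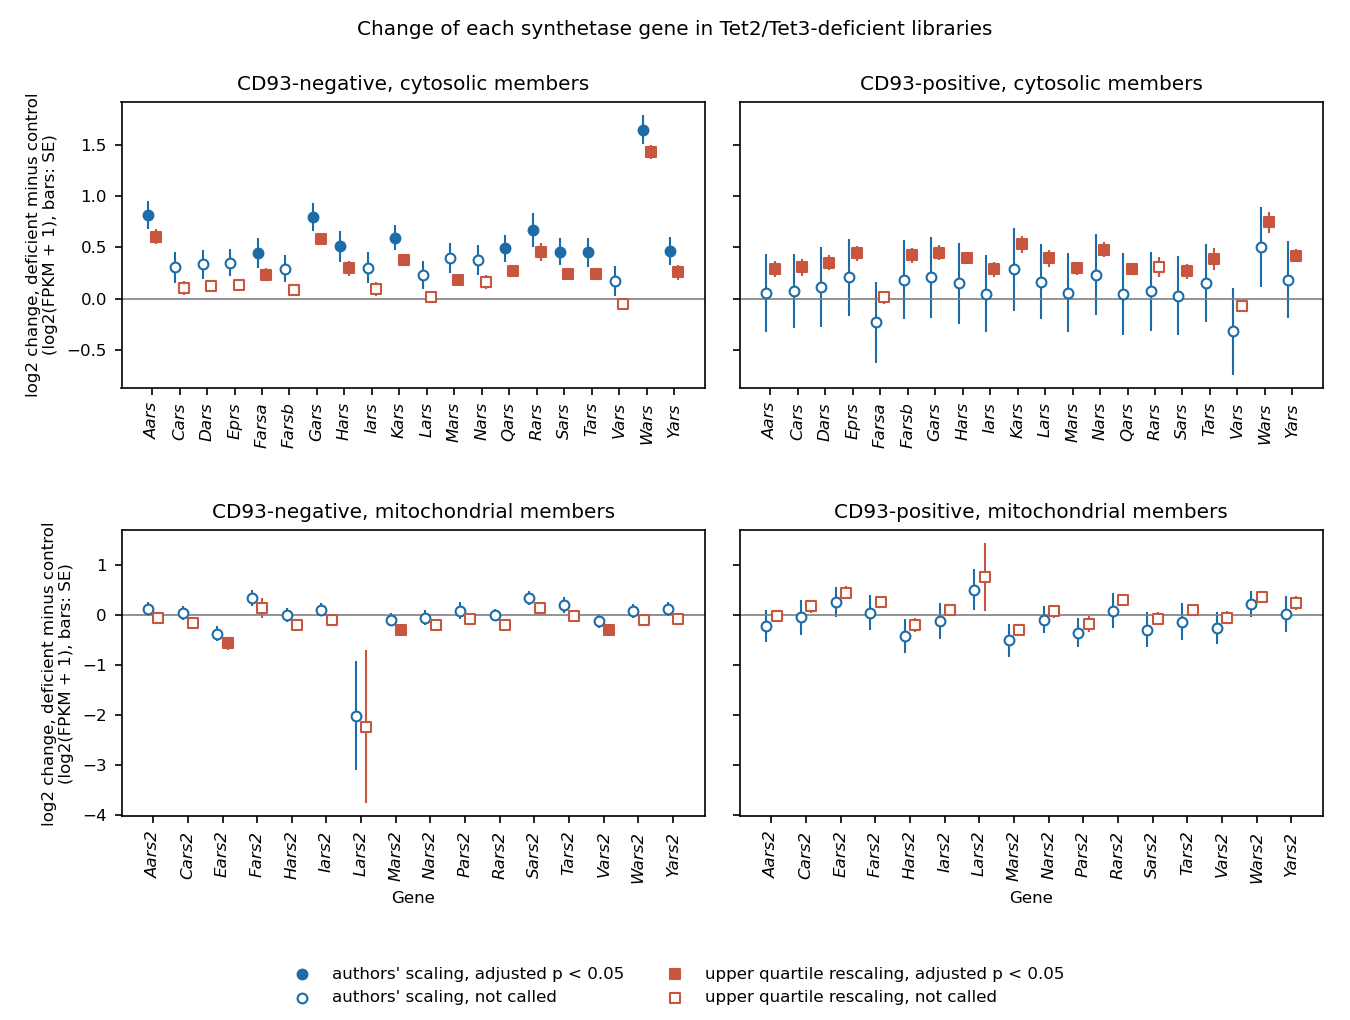
Each point is the log2 change of a gene (deficient minus control, log2(FPKM + 1), bars SE), with cytosolic members in the upper and mitochondrial members in the lower panels, CD93-negative cells at left and CD93-positive cells at right. Circles use the authors' scaling and squares the rescaled libraries, filled where the adjusted p is under 0.05. In CD93-negative cells 11 circles are filled, all cytosolic, and in CD93-positive cells none is, while 17 squares are.

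Wars stood above the rest of the list. It was at 18.6, 24.8 and 25.1 FPKM in the CD93-negative controls and at 75.9, 67.3 and 76.2 FPKM in the deficient libraries, with a wide gap between the groups. This was a rise from 22.8 ± 3.64 to 73.1 ± 5.04 FPKM (SD, n = 3), 3.20-fold (log2 change 1.65, SE 0.14, limma adjusted p = 7.69e-06). After rescaling the log2 change was 1.43 (limma adjusted p = 1.70e-05). Within each library, a measure that scaling does not touch, Wars stood at percentile 74.9 to 77.3 of the tested genes in the controls and at percentile 91.6 to 93.1 in the deficient libraries. Its mitochondrial counterpart Wars2 was at 3.22, 3.96 and 3.58 FPKM in deficient libraries, which overlapped the controls.

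The next largest changes were those of Aars and Gars. Aars was at 10.2, 11.8 and 13.4 FPKM in controls and 21.5, 20.5 and 22.4 FPKM in deficient libraries (log2 change 0.81, SE 0.13, limma adjusted p = 0.00103). Gars was at 18.3, 23.4 and 23.7 FPKM against 36.1, 39.9 and 39.5 FPKM (log2 change 0.80, SE 0.14, limma adjusted p = 0.00129). Neither gene's groups overlapped. Both hold a TGATGNAA motif in the windows shown above, as does Iars, which did not pass, whereas Kars rose without a match. Wars and Rars had no window, and a link between motif and change was not tested.

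Rars, the arginine enzyme, was at 13.5, 21.8 and 17.6 FPKM in controls and 26.3, 29.9 and 28.6 FPKM in deficient libraries (log2 change 0.67, SE 0.16, limma adjusted p = 0.0112). Kars was at 32.6, 38.2 and 35.5 FPKM against 54.9, 53.7 and 53.3 FPKM (log2 change 0.60, SE 0.12, limma adjusted p = 0.00417). Hars, the histidine enzyme, was at 15.9, 22.5 and 19.9 FPKM against 27.4, 25.2 and 31.2 FPKM (log2 change 0.51, SE 0.15, limma adjusted p = 0.0293). The groups did not overlap for any of the 3, and the Hars call was lost in 5 of 17 alternative fits and the Rars call in 2.

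The other genes that rose changed by less. Qars rose by 0.49 on the log2 scale, Yars and Sars, the serine enzyme, by 0.46 each, and Tars, the threonine enzyme, and Farsa by 0.45 each (limma adjusted p = 0.0203 to 0.0450). Farsa and Yars each lost the call in 8 of 17 alternatives, Tars in 7, Sars in 5 and Qars in 3. The 9 cytosolic genes that did not pass had log2 changes from 0.17 to 0.40 and adjusted p from 0.0693 to 0.459. They were Vars, Lars, Farsb, Iars, Cars, Dars, Eprs, Nars and Mars. Vars, the most abundant of the list, was at 135, 133 and 145 FPKM in deficient libraries, which overlapped the controls, and its change of 0.17 became -0.05 after rescaling. Farsa passed and its partner subunit Farsb did not, with changes of 0.45 and 0.30, a difference that was not tested.

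In the mitochondrial list the log2 changes ran from -2.01 to 0.35, and 11 of 16 were above 0, or 2 of 16 after rescaling. The 4 lowest were Lars2, Ears2, Vars2 and Mars2. Ears2 was at 6.995, 7.24 and 7.15 FPKM in controls and 5.62, 4.22 and 6.21 FPKM in deficient libraries. Its groups did not overlap, with a log2 change of -0.37 (limma adjusted p = 0.1002) that became -0.56 and passed after rescaling (limma adjusted p = 0.0165, with 0.0165 to 0.488 over its alternatives). Vars2, the valine enzyme, was at 6.20, 7.22 and 8.22 FPKM against 6.55, 6.84 and 6.35 FPKM. Mars2, the methionine enzyme, was at 7.77, 9.93 and 9.09 FPKM against 8.32, 8.91 and 7.74 FPKM. Both overlapped between groups in the authors' scaling, and after rescaling their changes were -0.30 and -0.29 (limma adjusted p = 0.0287 and 0.0231).

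Sars2 and Fars2 lay higher in every deficient library without passing the test. Sars2, the serine enzyme, was at 6.27, 7.92 and 7.89 FPKM against 11.01, 9.02 and 8.91 FPKM (log2 change 0.35, limma adjusted p = 0.107). Fars2, the phenylalanine enzyme, was at 5.53, 4.56 and 3.41 FPKM against 6.14, 6.01 and 5.57 FPKM (log2 change 0.35, limma adjusted p = 0.1497), and it passed without control 1. After rescaling both overlapped. The remaining 10 mitochondrial genes had log2 changes from -0.05 to 0.20.

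Lars2 was the most variable member. In CD93-negative controls it was at 3333, 49.4 and 84.8 FPKM, and in deficient libraries at 61.4, 58.7 and 58.1 FPKM. A single control library, the one that stood apart in scale, held the high value, and the deficient libraries lay between the other 2 controls. The log2 change of -2.01 had an SE of 1.10 (limma adjusted p = 0.230), and without control 1 it was -0.12 (limma adjusted p = 0.683). Leaving out another library gave a call of lower Lars2 in 4 of 5 fits, all of which held control 1. In CD93-positive cells Lars2 was at 50.6, 39.8 and 77.2 FPKM in controls and at 55.1, 50.8 and 165 FPKM in deficient libraries, where again the library that stood apart was the highest. Its log2 change of 0.52 (limma adjusted p = 0.651) became -0.025 without deficient 3.

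The ribosomal RNA precursor Rn45s was highest in the same 2 libraries. It was at 12039 FPKM in CD93-negative control 1, against 294 to 377 FPKM in the other 5 libraries, and at 1105 FPKM in CD93-positive deficient 3, against 425 to 629 FPKM. The small noncoding RNAs Rmrp and Rpph1 were at 897 and 671 FPKM in CD93-negative control 1 and at most at 13.0 and 13.9 FPKM in the other CD93-negative libraries. Lars2 amounted to 15.7% to 27.7% of Rn45s in the CD93-negative and 8.50% to 14.9% in the CD93-positive libraries. The part of ribosomal RNA in the Lars2 values was not tested. Lars, the cytosolic leucine enzyme, was at 13.1 FPKM in CD93-negative control 1 and 10.5 FPKM in CD93-positive deficient 3, the lowest of its table in both. It was not the lowest once rescaled. CD93-negative control 1 was then at 16.6 FPKM, against 16.7 and 16.4 FPKM in controls 2 and 3. CD93-positive deficient 3 was at 18.0 FPKM, against 13.6, 15.1 and 14.1 FPKM in the controls. Sums over the mitochondrial list are given without Lars2 below.

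**Figure D3:**
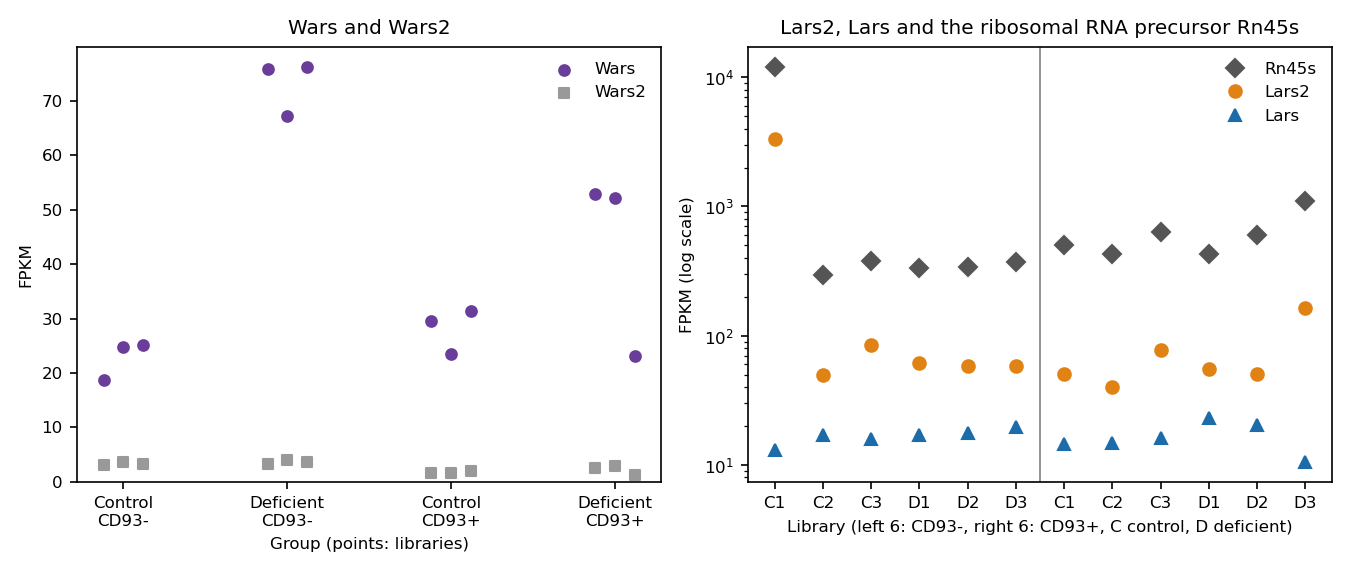
At left, FPKM of Wars (circles) and Wars2 (squares) in each library by group. At right, FPKM on a log scale of Rn45s, Lars2 and Lars in each library, with the 6 CD93-negative libraries left of the line and the 6 CD93-positive libraries right of it. Wars is at 67.3 to 76.2 FPKM in the deficient CD93-negative libraries against 18.6 to 25.1 FPKM in controls, and Lars2 peaks in the libraries where Rn45s peaks.

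CD93-positive cells were compared in the same way. With the authors' scaling 0 of 36 members passed in either direction (limma, 0 with an unadjusted p under 0.05), while 1.67% of all tested genes rose and 1.54% fell. All members but Lars2 had their lowest deficient value in deficient 3, and for 20 of 20 cytosolic genes the groups overlapped, against 2.94% of all genes lying wholly higher. Mars2 was the 1 member that lay wholly lower, against 19% of all genes. After rescaling 17 of 20 cytosolic genes rose and 0 fell, with 11.4% of all genes higher and 9.34% lower. The 3 that did not pass were Rars, Farsa and Vars. In 18 of the 20 the deficient libraries then lay above all controls, against 20.9% of all genes. No mitochondrial gene passed after rescaling (3 had an unadjusted p under 0.05). In that list 4 genes lay wholly higher and 1 wholly lower, the latter against 22% of all genes. The cytosolic median log2 change was 0.13 beside -0.22 over all genes with the authors' scaling and 0.37 beside -0.01 after rescaling, so the distance from all genes was 0.36 and 0.38.

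The rescaled count of 17 depended on the model. Without deficient 3 it was 10, and with sex as a covariate 2 (Hars and Nars). In the latter fit the genotype effect rests on control 3 against the 3 deficient libraries. Sex and genotype are thus told apart in this table by 1 control library alone. With the authors' scaling and deficient 3 left out, 2 genes passed, Kars and Wars. With the authors' scaling the fit gave genes of like level nearly the same spread, so its p-values follow the size of a change more than the replicates of a gene. In simulated data for that fit, 0 of 100 genes changed by 1 log2 unit were recovered, against 79 of 100 after rescaling (11092 and 11122 genes). The simulated noise was drawn for each gene separately, whereas in the data the low scale of deficient 3 is shared across genes. The simulated recovery therefore does not measure what the fit of the real data can call.

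Wars again had the largest increase of the cytosolic list. It was at 29.5, 23.4 and 31.4 FPKM in the CD93-positive controls and at 53.0, 52.1 and 23.1 FPKM in the deficient libraries, of which the last lay below the controls (log2 change 0.51, SE 0.39, limma adjusted p = 0.642). The rescaled values were 27.5, 23.9 and 27.5 FPKM against 46.8, 47.9 and 39.5 FPKM, without overlap (log2 change 0.74, SE 0.10, limma adjusted p = 0.00548, with 0.00544 to 0.9995 over its alternatives). Within each library it moved from percentile 72.4 to 76.1 in controls to percentile 83.3 to 85.9 in deficient libraries. Without deficient 3 the log2 change in the authors' scaling was 0.89 (limma adjusted p = 0.0153). The size of the change in CD93-positive cells was not tested against that in CD93-negative cells.

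Kars was at 64.4, 51.4 and 61.5 FPKM in controls and 95.3, 90.9 and 43.1 FPKM in deficient libraries. Rescaled, it was at 59.9, 52.4 and 53.8 FPKM against 84.3, 83.6 and 73.7 FPKM (log2 change 0.53, SE 0.08, limma adjusted p = 0.00912). Nars, the asparagine enzyme, was at 41.6, 37.2 and 41.0 FPKM against 64.4, 54.4 and 29.7 FPKM, and its rescaled change was 0.48 (limma adjusted p = 0.00876). In both genes deficient 1 and 2 lay above every control and deficient 3 below them until rescaled. The other 14 genes called after rescaling had log2 changes from 0.27 (Sars) to 0.45 (Gars). Of the 11 genes that rose in CD93-negative cells with the authors' scaling, 9 were among these 17, that is 9 of 11 and 9 of 17. Rars and Farsa were not among the 17, with rescaled CD93-positive changes of 0.31 (limma adjusted p = 0.0645) and 0.01 (limma adjusted p = 0.901). Lars, which had a rescaled change of 0.40 and rose in CD93-positive cells, had one of 0.021 in CD93-negative cells. None of these differences between the populations was tested.

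Among mitochondrial genes of CD93-positive cells, Ears2 and Wars2 had the largest increases after Lars2. Ears2 was at 2.71, 2.68 and 3.55 FPKM in controls and 3.996, 5.24 and 2.48 FPKM in deficient libraries, and Wars2 at 1.60, 1.60 and 1.99 FPKM against 2.51, 2.95 and 1.32 FPKM. After rescaling neither overlapped between groups, with changes of 0.45 and 0.37 that stayed above the threshold (limma adjusted p = 0.0573 and 0.0783). The Ears2 values of the CD93-negative table lay in the opposite order between groups, lower in deficient libraries. At the other end, Mars2 was at 8.52, 6.85 and 8.05 FPKM in controls and 6.18, 5.63 and 4.03 FPKM in deficient libraries, without overlap (log2 change -0.50, limma adjusted p = 0.582). Hars2, the histidine enzyme, was at 10.4, 7.70 and 12.4 FPKM against 8.19, 8.68 and 5.26 FPKM. Pars2 was at 3.68, 3.20 and 4.30 FPKM against 2.65, 4.10 and 1.71 FPKM, and the cytosolic Vars at 165, 148 and 173 FPKM against 173, 153 and 82.2 FPKM. These last 3 overlapped, and the Vars change of -0.31 was 0.012 without deficient 3.

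The balance between the lists was read within each library, where scaling cancels. Gars and Kars, which serve both compartments, are counted in the cytosolic sums alone, and the ratio without them was not computed. Summed cytosolic FPKM were 435, 584 and 544 in CD93-negative controls and 716, 720 and 768 in deficient libraries, while the mitochondrial sums without Lars2 were 113, 138 and 128 FPKM against 129, 136 and 136 FPKM. The cytosolic sums did not overlap and the mitochondrial sums did. After rescaling the mitochondrial sums were 144, 135 and 132 FPKM against 123, 127 and 123 FPKM, wholly lower in deficient libraries. Of all tested genes 33.3% then lay wholly lower. The rescaled median log2 change was -0.13 in the mitochondrial list, beside -0.08 over all genes. The ratio of the mitochondrial to the cytosolic sum was 0.261, 0.236 and 0.235 in controls and 0.181, 0.189 and 0.176 in deficient libraries. In CD93-positive cells the cytosolic sums were 755, 670 and 785 FPKM against 982, 929 and 487 FPKM, and the mitochondrial sums 127, 113 and 142 FPKM against 142, 143 and 74.6 FPKM, both with overlap. After rescaling these mitochondrial sums were 118, 115 and 124.7 FPKM against 125.2, 132 and 128 FPKM. The deficient libraries lay higher, but control 3 and deficient 1 nearly met. Of all tested genes 20.9% then lay wholly higher. The difference from the CD93-negative sums was not tested. The CD93-positive ratio was 0.168, 0.169 and 0.181 against 0.144, 0.154 and 0.153. The ratio was thus lower in every deficient library of both tables, with log2 differences of -0.42 and -0.20, and it was lower in CD93-positive than in CD93-negative controls, where the tables are only set side by side. With Lars2 counted, the log2 difference of the ratio was -1.93 in CD93-negative and 0.15 in CD93-positive cells. No p-value is given for these sums.

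**Figure D4:**
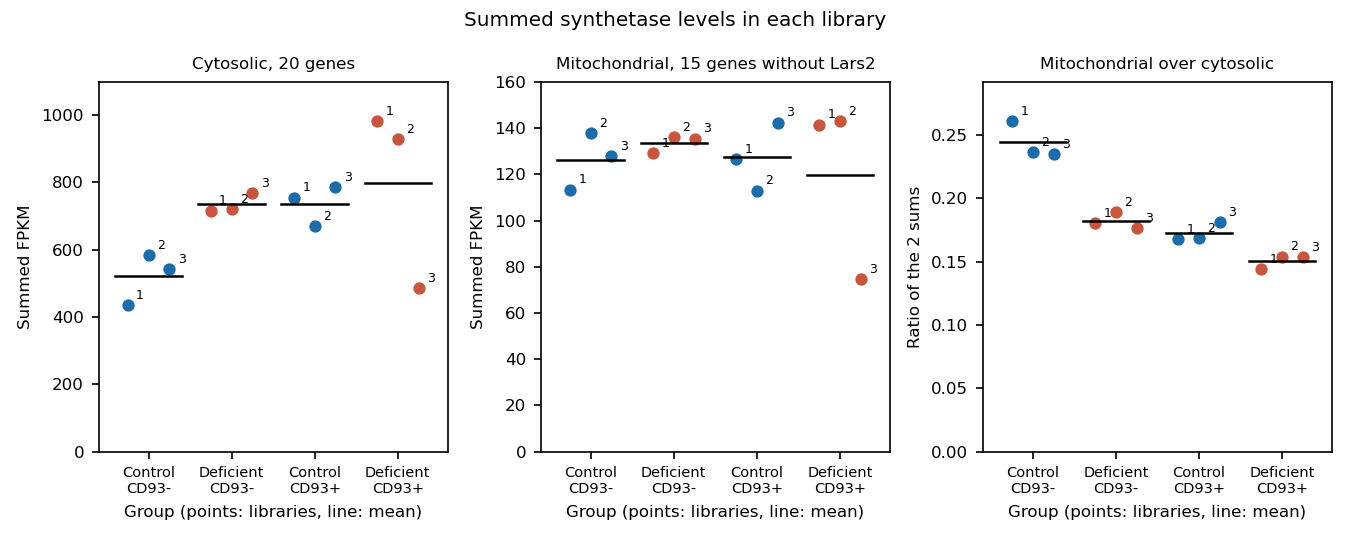
Summed FPKM of the 20 cytosolic genes (left), of 15 mitochondrial genes without Lars2 (middle) and the ratio of the second to the first (right) in each library, numbered by replicate, with the group mean as a line. The ratio is at 0.235 to 0.261 in CD93-negative controls against 0.176 to 0.189 in deficient libraries, and at 0.168 to 0.181 against 0.144 to 0.154 in CD93-positive cells. CD93-positive deficient 3 has low sums and a ratio like that of the other deficient libraries.

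Pairs of enzymes for the same amino acid were compared within each library, without a test. In CD93-negative cells the pairs whose changes differed most were Lars and Lars2, Wars and Wars2, Eprs and Ears2, and Aars and Aars2. The ratio of Wars to Wars2 was 6.00, 6.83 and 7.65 in controls and 23.6, 17.0 and 21.3 in deficient libraries. That of Eprs to Ears2 was 2.71, 3.31 and 2.99 against 4.71, 6.47 and 4.62, and that of Aars to Aars2, the alanine enzymes, 2.17, 2.45 and 2.42 against 4.06, 3.76 and 3.71. All 3 ratios were higher in every deficient library, whereas the Lars to Lars2 ratio (0.00393, 0.345 and 0.187 against 0.277, 0.301 and 0.337) followed Lars2 and overlapped. In CD93-positive cells the pairs were Hars and Hars2, Eprs and Pars2, Mars and Mars2, and Lars and Lars2. The Hars to Hars2 ratio was 3.82, 4.50 and 3.20 against 6.33, 6.02 and 5.29, and the Mars to Mars2 ratio 3.35, 4.06 and 3.84 against 6.07, 6.47 and 5.06. The Eprs to Pars2 ratio was 5.33, 5.85 and 4.66 against 10.1, 6.99 and 8.88, again without overlap. Lars to Lars2, at 0.289, 0.370 and 0.209 against 0.421, 0.3995 and 0.0640, overlapped. The Wars to Wars2 ratio in CD93-positive cells was 18.4, 14.7 and 15.8 against 21.1, 17.7 and 17.5 and overlapped too.

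Cytosolic synthetases differ in structure and assembly. The multi-synthetase complex holds 8 enzymes of the list (Eprs, Iars, Lars, Mars, Qars, Rars, Kars and Dars) on 3 scaffold proteins. Of the 8 enzymes 3 rose in CD93-negative cells (Qars, Rars and Kars), 4 after rescaling, against 18.7% and 17.1% of all tested genes. In CD93-positive cells 0 of 8 rose, or 7 after rescaling, against 1.67% and 11.4%. Aimp1, a scaffold protein, rose in CD93-negative cells from 25.6 ± 3.48 to 42.0 ± 3.17 FPKM (log2 change 0.70, limma adjusted p = 0.00324), and Aimp2 from 12.1 ± 1.69 to 16.8 ± 1.53 FPKM (log2 change 0.45, limma adjusted p = 0.0376). After rescaling Aimp1 still passed and Aimp2 did not. In CD93-positive cells Eef1e1, the remaining scaffold protein, passed after rescaling (log2 change 0.54, limma adjusted p = 0.00809). By catalytic class, 4 of 18 class I members and 7 of 17 class II members rose in CD93-negative cells, beside the 18.7% of all tested genes that rose, with medians of 0.15 and 0.35 beside 0.11 over all genes. After rescaling 5 class I members were higher and 3 lower, and 7 class II members were higher and 0 lower, beside 17.1% and 23.8% of all genes. The class I count in the authors' scaling is near the share of all genes. The class lists hold cytosolic and mitochondrial enzymes, and Eprs, which joins both classes, is in neither.

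Genes that work beside the synthetases were read from lists chosen by function. A list held related genes that are not members (tRNA-dependent amidation, editing and others), of which 12 were tested. In CD93-negative cells Pstk, a kinase of selenocysteine tRNA, fell after rescaling (log2 change -0.47, limma adjusted p = 0.0130). In CD93-positive cells 0 of 12 passed. The gene of that list with the highest level there, Aarsd1, an editing protein for mischarged alanine tRNA, was at 23.0, 16.9 and 24.7 FPKM against 30.8, 26.3 and 13.3 FPKM.

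Atf4 and genes that respond to it, many of them of amino acid supply, moved in part. In CD93-negative cells 8 of 17 tested, of 24 listed, rose and 0 fell under both scalings (median log2 change 0.47 beside 0.11 over all genes). Of all tested genes 18.7% rose there, or 17.1% after rescaling. The 8 were Aldh18a1, Asns, Ddit4, Mthfd2, Phgdh, Psat1, Shmt2 and Slc7a5. Atf4 itself, Atf5, Ddit3 and Trib3 are in the list and were not among the 8. Asns, which makes asparagine, was at 0.690, 0.345 and 0.601 FPKM in controls and 3.28, 5.03 and 5.51 FPKM in deficient libraries (log2 change 1.84, limma adjusted p = 2.31e-05). Psat1, of serine synthesis, went from 9.53 ± 1.83 to 23.9 ± 1.31 FPKM (log2 change 1.26), and Slc7a5, a transporter of large neutral amino acids, from 6.58 ± 1.07 to 15.6 ± 0.0742 FPKM (log2 change 1.14). In CD93-positive cells 2 of 20 rose, the proline enzyme gene Pycr1 (0.666 ± 0.0936 to 2.22 ± 0.369 FPKM) and Chac1, of glutathione breakdown (0.223 ± 0.149 to 1.36 ± 0.527 FPKM). After rescaling 8 of 20 rose, Asns with a log2 change of 1.121 (limma adjusted p = 0.00646). The shares of all tested genes that rose in CD93-positive cells were 1.67% and, after rescaling, 11.4%.

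Amino acid transporters carry amino acids across membranes. In CD93-negative cells 3 of 13 tested rose, Slc7a5, Slc43a1 and Slc36a4, with log2 changes of 1.14, 0.74 and 0.69, a count near the 18.7% of all genes. After rescaling these 3 still rose, beside 17.1% of all genes, while 3 others fell, beside 23.8%. In CD93-positive cells 0 of 13 passed with the authors' scaling and 6 fell after rescaling, beside 9.34% of all genes. Slc1a5, a glutamine transporter, was at 214, 210 and 239 FPKM against 162, 144 and 83.2 FPKM there, and Slc38a9 and Slc36a4 had rescaled changes of -0.70 and -0.59. Slc36a4 was thus called higher in CD93-negative and lower in CD93-positive cells, the latter after rescaling alone, and the difference was not tested.

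Factors that use charged tRNA at the ribosome were read in the same way, cytosolic and mitochondrial apart. Of 12 cytosolic elongation and release factors 7 rose and 0 fell in CD93-negative cells under both scalings (median log2 change 0.53 beside 0.11). Of all tested genes 18.7% rose there, or 17.1% after rescaling. Eef1b2 went from 126 ± 13.9 to 213 ± 18.9 FPKM, Eif5a from 215 ± 25.9 to 338 ± 16.5 FPKM and Eef1g from 311 ± 31.7 to 484 ± 23.7 FPKM (log2 changes 0.75, 0.66 and 0.64). In CD93-positive cells 0 of 12 passed, or 6 after rescaling, with Eef1g at 0.55. Of all tested genes 1.67% rose in CD93-positive cells, or 11.4% after rescaling. Of 11 mitochondrial translation factors 2 rose in CD93-negative cells, Ict1, a peptidyl-tRNA hydrolase of the mitochondrial ribosome (15.8 ± 0.348 to 27.7 ± 4.20 FPKM), and the release factor gene Mtrf1, and after rescaling Ict1 alone. The count of 2 of 11 is near the 18.7% of all genes that rose. In CD93-positive cells 0 of 11 passed, or 3 after rescaling, among them the elongation factor gene Tufm (log2 change 0.33). The median change of the mitochondrial factors in CD93-negative cells was 0.23. Neither list was tested against the other.

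Other programmes moved in the same libraries, and their part in the synthetase changes was not tested. The counts stand beside 18.7% of all tested genes that rose in CD93-negative cells. In CD93-positive cells that share was 1.67%, or 11.4% after rescaling. Of 9 tested interferon-gamma responsive genes 9 rose in CD93-negative cells, and their sum was 253 to 338 FPKM in controls and 1016 to 1087 FPKM in deficient libraries. Iigp1, an interferon-inducible GTPase, was at 0.362, 0.255 and 0.442 FPKM against 43.5, 39.8 and 44.2 FPKM. Wars, itself known as such a gene, is not in that list. In CD93-positive cells 3 of 9 rose, or 9 of 9 after rescaling, with sums of 264 to 373 against 378 to 823 FPKM. Plasma cell genes had 8 of 10 higher in CD93-negative cells (sums of 377 to 495 against 1026 to 1138 FPKM) and 6 of 10 in CD93-positive cells (529 to 735 against 1656 to 3021 FPKM). With rescaled libraries 8 of 10 were higher in CD93-positive cells and 1, Irf4, was lower, beside 9.34% of all genes lower. The antibody joining chain gene Igj was at 4.49, 9.78 and 9.09 FPKM against 192, 212 and 221 FPKM in CD93-negative cells. Proliferation genes had 13 of 14 higher in CD93-negative cells, with sums of 74.99 to 112 against 294 to 320 FPKM. In CD93-positive cells 0 of 14 passed, or 3 after rescaling, with sums of 836 to 938 against 646 to 998 FPKM.

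Markers of other cells also differed between groups. Of all tested genes 18.7% rose in CD93-negative cells, or 17.1% after rescaling. In CD93-positive cells 1.67% rose and 1.54% fell, or 11.4% and 9.34% after rescaling. T cell markers had 4 of 6 tested genes higher in CD93-negative cells (sums over 8 genes 10.4 to 18.3 FPKM in controls against 24.6 to 26.5 FPKM). Macrophage markers had 2 of 3 tested higher, with sums of 10.3 to 15.2 against 14.8 to 16.4 FPKM, and red cell markers 4 of 6, with sums of 41.9 to 60.3 against 170 to 198 FPKM (2 of 6 after rescaling). The globin genes among them are near-identical copies whose reads can be split between copies. In CD93-positive cells red cell markers ran the other way, with 6 of 8 lower and sums of 15078 to 64372 FPKM in controls against 3303 to 15682 FPKM in deficient libraries, and 0 of 8 passed after rescaling. Neutrophil markers there were at 1599 to 2229 against 444 to 1400 FPKM (1 of 7 lower, 5 after rescaling), and NK cell markers at 16.9 to 34.4 against 25.4 to 67.8 FPKM (1 of 6 tested higher, 3 after rescaling). The only marker of these lists at 0 in all 3 libraries of a group was Mpo, a neutrophil gene, in CD93-negative controls. The part of these cells in the synthetase values was not tested.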

How the data were processed

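RNA had been purified with an RNeasy micro kit and made into strand-specific SureSelect libraries, per the labels' protocols. The submitters' processing notes name the mm9 build, with Cufflinks 2.1.1, TopHat2 2.0.8 and Bowtie2 2.1.0. The authors deposited FPKM values in 1 column per library. The annotation and the handling of multiply mapped reads are not given in the sources used here. A further 6 columns of the CD93-positive table repeated the 6 used, value for value, and were left out. Another 12 samples, which divide CD93-negative cells by their CD21 and CD23 levels, were not analysed here.

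Log2(FPKM + 1) values were fitted with limma 3.58.1 in R 4.3.3 (eBayes with trend, two-sided, no covariate), keeping genes that reached 1 FPKM in 3 or more of the 6 libraries of a table. P-values were adjusted over all tested genes. Rescaling brought the 75th percentile of the tested genes to its mean over the libraries. Alternatives were pseudocounts of 0.1 and 5, no filter, a filter of 5 FPKM, upper quartile and quantile scaling, no trend, sample quality weights, a replicate block, sex as a covariate and each library left out. Combinations with rescaling and the sums without Lars2 were added after seeing the data. In simulated data, CD93-negative fits recovered 11 of 100 genes changed by 0.5 log2 units and 78 of 100 changed by 1 log2 unit (10814 genes, 3 false of 92 calls). The simulated noise was drawn for each gene separately and holds no shift of scale shared across the genes of a library.

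Members, lists and tests were chosen with earlier results of these data known. Library values were named, by rule, for the 6 largest and 4 lowest changes of each comparison, the 3 highest and 3 lowest control means of each list, and the 4 amino acid pairs whose changes differed most. Values for Sars2, Fars2 and Vars in other places, and for Lars, were added after they were seen. From other lists up to 3 called genes, or the most abundant, were named. A single gene of another list is not reported here.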

Additional observations from a re-analysis of the deposited data

How the results depend on the processing

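In CD93-negative cells the 11 cytosolic genes called higher became 6 without a filter on low values and 5 with sample quality weights, and 5 to 15 with 1 library left out. The lowest counts came without deficient 1 or 3 (5 each), deficient 2 (6) and control 3 (7). Counts over all genes moved as well: 1180 to 2630 were called higher with 1 library left out, against 2045 in the main fit. Mitochondrial genes called higher were 1 without control 1 (Fars2), with or without rescaling, and 0 to 1 over single libraries left out. Those called lower were 3 after rescaling, 1 with quantile normalization, 2 with rescaling and the block, 1 with rescaling and no control 1, and 0 to 1 over libraries left out, where the gene was Lars2. In CD93-positive cells the cytosolic count of 0 became 17 after rescaling or quantile normalization, 10 with rescaling and no deficient 3, 2 with rescaling and sex as a covariate, and 0 to 2 over libraries left out. Quantile normalization also called 1 mitochondrial gene, Rars2. Over all genes of the CD93-positive table, 80 to 487 were called higher with 1 library left out, against 188 in the main fit. The mitochondrial to cytosolic log2 ratio in CD93-positive cells, 0.15 with Lars2, turned to -0.20 without Lars2, -0.19 as a mean of log2 values and -0.23 as such a mean without Lars2. The CD93-positive change of Lars2 turned to -0.025 without deficient 3 (-0.083 when also rescaled; -0.025 to 0.82 over libraries left out), and that of Vars to 0.015 with sample quality weights and 0.012 without deficient 3 (-0.52 to 0.012). With libraries left out, the cytosolic median lay 0.30 to 0.35 above that of all genes in the CD93-negative table, and 0.33 to 0.38 above it in the CD93-positive one. Of the alternatives for single named genes, 38 in CD93-negative cells lost a call and 12 gained one, and in CD93-positive cells 15 gained one. Except where the setting itself leaves out a library, the cause was not tested. Depth is unknown and limits what can be said of low genes such as Wars2 and Nars2.

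Same-numbered libraries did not deviate together from their group means (r across genes 0.02, -0.11 and -0.09 in CD93-negative and 0.17, -0.11 and -0.14 in CD93-positive cells), so the numbers were not taken as pairs. With the replicate block 13 cytosolic genes were higher and 1 mitochondrial gene, Lars2, lower in CD93-negative cells, and 0 passed in CD93-positive cells. With rescaling and the block the cytosolic counts were 10 and 6.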

Other observations

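Vars, with the most abundant cytosolic mRNA, and Wars, with the largest change, stood at opposite ends of the order of log2 change in both populations. Vars, at 123 FPKM in CD93-negative controls, had the smallest log2 change there (0.17), and Wars, at 22.8 FPKM, the largest (1.65). In CD93-positive cells Vars and Wars were again the lowest and the highest of the cytosolic list, with -0.31 and 0.51, or -0.07 and 0.74 after rescaling. Vars changed sign with rescaling in CD93-negative cells (-0.05) and without deficient 3 in CD93-positive cells (0.012). The rest of the list did not follow this order of level: Kars, next by control mean, changed by 0.60 in CD93-negative cells, and Cars, the lowest, by 0.31. A relation between level and change was not tested.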
